A study of Homo sapiens with 6 samples.

Results

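DPPA2, DPPA3, DPPA4, DPPA5 and ZFP42 were followed as a set of 5 genes whose products mark early embryos and pluripotent cells. They are given by name, with no measured value in the rule, though with earlier results of these data known, out of 19819 protein-coding genes with a canonical transcript on chromosomes 1 to 22 and X. CpG methylation had been measured by whole-genome bisulfite sequencing of H9, an established line of human embryonic stem cells, as 3 conventional and 3 reset libraries. Conventional cells were grown in FGF/KSR medium, with 20% knockout serum replacement (KSR) and 10 ng/ml basic fibroblast growth factor (bFGF). Reset cells descend from H9 cells transfected with doxycycline-inducible NANOG and KLF2, which were induced with 1 μM doxycycline during resetting. They were then kept without doxycycline in t2iL+Gö, a medium with 1 μM CHIR99021 (an inhibitor of GSK3), 1 μM PD0325901 (an inhibitor of MEK), human LIF and 5 μM Gö6983 (an inhibitor of protein kinase C). All cells were kept at 5% oxygen on mouse embryonic fibroblast feeders. The sources used here do not state whether each reset library stems from its own resetting, or whether the conventional libraries carry the transgenes. The medium and the history of the cells cannot be told apart in this comparison. The study calls the libraries of a group biological replicates. Apart from the permutation test of the flanks, p-values rest on the numbers of calls and on the spread between these libraries. That spread is estimated partly from all promoters, bodies or tiles, and not from each gene alone.

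A cytosine followed by guanine (CpG) can carry a methyl group that is copied at each round of DNA replication, and dense methylation of a promoter usually goes with a silent gene. DPPA2 and DPPA4 lie next to each other and encode SAP-domain proteins that bind DNA as a heterodimer. In mouse embryonic stem cells this pair is known for activating genes of the earliest embryonic program and for keeping developmental promoters free of methylation. DPPA3, also called STELLA, is a maternal-effect protein that hinders the maintenance of DNA methylation through UHRF1. DPPA5 is a small KH-domain protein that binds RNA. ZFP42, also called REX1, is a zinc finger protein related to YY1 and a classical marker of naive pluripotency. RNA was not measured in these libraries, so every level below is one of methylation.

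A promoter is taken here from 1000 bases before to 500 bases after the transcription start of the canonical transcript, on GRCh37. The promoters lie at chr3:109034865-109036364 (DPPA2, minus strand), chr3:109055894-109057393 (DPPA4, minus strand), chr12:7863029-7864528 (DPPA3, plus strand), chr6:74063500-74064999 (DPPA5, minus strand) and chr4:188915925-188917424 (ZFP42, plus strand). The starts of DPPA2 and DPPA4 are 21029 bases apart. The promoters hold 54 CpGs in DPPA2, 22 in DPPA3, 28 in DPPA4 and 82 each in DPPA5 and ZFP42. Relative to the number expected from base composition, the ratio of CpGs was 0.386 in DPPA3, 0.425 in DPPA4, 0.561 in DPPA2, 0.681 in DPPA5 and 0.724 in ZFP42. Of all promoters, 23.8% had a lower ratio than DPPA3 and 60.5% a lower ratio than ZFP42, so the set runs from CpG-poor promoters to ones near the middle of all promoters.

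The 250 bases directly upstream of the start show how CpG content and methylation combined in these genes. The sequences are from the GRCh37 genome, 5′ to 3′ in the direction of transcription, with CpGs in capitals. DPPA3 and DPPA4 are shown as CpG-poor examples and DPPA5 and ZFP42 as examples with more CpGs, and in each pair conventional cells were methylated at the former and nearly unmethylated at the latter. They lie at chr12:7863779-7864028 (DPPA3, plus strand), chr3:109056394-109056643 (DPPA4, minus strand), chr6:74064000-74064249 (DPPA5, minus strand) and chr4:188916675-188916924 (ZFP42, plus strand).
DPPA3: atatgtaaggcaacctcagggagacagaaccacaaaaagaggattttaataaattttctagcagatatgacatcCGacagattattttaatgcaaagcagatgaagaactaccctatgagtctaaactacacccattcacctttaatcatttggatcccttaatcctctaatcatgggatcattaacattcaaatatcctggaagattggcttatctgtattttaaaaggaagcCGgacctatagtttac
DPPA4: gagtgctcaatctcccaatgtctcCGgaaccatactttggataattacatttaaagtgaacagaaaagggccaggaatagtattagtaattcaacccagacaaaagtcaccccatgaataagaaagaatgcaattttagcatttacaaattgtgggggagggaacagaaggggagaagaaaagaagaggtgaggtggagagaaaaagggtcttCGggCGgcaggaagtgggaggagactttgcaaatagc
DPPA5: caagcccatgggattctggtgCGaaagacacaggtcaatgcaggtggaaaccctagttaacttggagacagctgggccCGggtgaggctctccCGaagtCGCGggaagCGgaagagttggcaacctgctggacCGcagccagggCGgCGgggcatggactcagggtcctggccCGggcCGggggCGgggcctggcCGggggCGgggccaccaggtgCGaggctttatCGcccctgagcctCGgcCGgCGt
ZFP42: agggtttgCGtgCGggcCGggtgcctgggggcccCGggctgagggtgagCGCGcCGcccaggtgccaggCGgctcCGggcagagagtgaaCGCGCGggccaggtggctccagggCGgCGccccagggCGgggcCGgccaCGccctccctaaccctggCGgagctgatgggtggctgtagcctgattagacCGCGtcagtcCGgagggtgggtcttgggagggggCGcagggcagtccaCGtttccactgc

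The DPPA3 stretch holds 2 whole CpGs, and its last base is the C of another. Over these 3 CpGs 32 of 33 calls were methylated in the conventional libraries together and 0 of 38 calls in the reset libraries, where a count of 0 allows up to 7.89%. The DPPA4 stretch also holds 3 CpGs, with 0 of 41 methylated calls in conventional cells (a limit of 7.32%) and 1 of 46 in reset cells. These CpG-poor stretches thus stood at opposite ends in conventional cells and both near 0 in reset cells. In the DPPA5 stretch, with 19 CpGs, 115 of 118 calls were methylated in conventional cells and 2 of 141 in reset cells. In the ZFP42 stretch, with 23 CpGs, 1 of 72 calls was methylated in conventional cells and 10 of 158 in reset cells, 9 of them in reset replicate 2. The limits count calls only, since the libraries carry no molecular identifiers and were amplified over 11 PCR cycles. They also take calls as independent, though calls at neighbouring CpGs can come from the same read. All limits at a count of 0, here and below, can thus be too low by an amount that was not tested.

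The deposited calls of the conventional libraries totalled 92023996 to 98004161, or 3.28 to 3.49 calls per CpG of the reference. The reset libraries held 70329213 to 80199615 calls, or 2.51 to 2.86 per CpG. A methylation level is the percentage of calls that are methylated, and over all calls it was 84.4% ± 0.161 (SD, n = 3) in conventional and 30% ± 0.432 (SD, n = 3) in reset cells. Each promoter of the 5 genes had 59 to 312 calls in a library. The share of reads from feeder cells was not stated and was not tested.

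At the promoters, the 5 genes started from different levels in conventional cells and all had a mean of under 5% in reset cells, where the median of all promoters tested was 4.98%. DPPA5, DPPA2 and DPPA3 were highly methylated in conventional cells, ZFP42 was partly methylated and DPPA4 was nearly unmethylated. The promoters of DPPA2, DPPA3, DPPA5 and ZFP42 fell in reset cells, and DPPA4 had a mean of 0.366% in both groups. This is 4 of 5 promoters lower, where 67.4% of all 19300 promoters tested were lower and 3.98% higher (quasi-binomial model, adjusted p under 0.05). The median difference was -75.4 points in the 5 genes, beside -9.59 points over all promoters tested. It was -54.3 points over the 4438 promoters at 70% or more in conventional cells, which DPPA4 and ZFP42 were not among. In the 4 lower promoters of the set the highest reset level was below the lowest conventional level. This held for 68.9% of all promoters, and 4.63% were separated the other way.

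DPPA2 had promoter levels of 86.9, 77.4 and 80% in the 3 conventional libraries and 1.85, 1.91 and 2.58% in the 3 reset libraries. The highest reset library lay far below the lowest conventional one. The mean went from 81.4% ± 4.90 to 2.12% ± 0.404 (SD, n = 3 each) and thus fell by 79.3 percentage points (adjusted p = 1.85e-09, quasi-binomial model), so that 97.4% of the level was lost. Of all promoters tested, 1.38% had a larger fall, and 80.85% were below DPPA2 in conventional cells and so started from a lower level. Its partner DPPA4 had 0, 1.10 and 0% in conventional and 1.10, 0 and 0% in reset libraries, so the groups overlapped and the difference was 0 points (adjusted p = 0.99, quasi-binomial model). This rested on 1 methylated call of 268 in conventional and 1 of 261 in reset cells. A library with no methylated call at this promoter had 75 to 102 calls, which allows a level of up to 2.94 to 4% if calls are independent. With the promoter drawn from 2000 bases upstream, the difference of DPPA4 was -6.66 points (adjusted p = 0.00502, quasi-binomial model).

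DPPA5 had the highest promoter level of the set in conventional cells, with 97.6, 100 and 96.8%, and 1.43, 2.87 and 0% in reset libraries. The level of 0% rested on 183 calls over 82 CpGs, which allow up to 1.64% if calls are independent. The mean went from 98.1% ± 1.68 to 1.43% ± 1.43 (SD, n = 3 each) and thus fell by 96.7 points (adjusted p = 2.79e-10, quasi-binomial model). A larger fall was measured at 0.0104% of all promoters tested. In conventional cells 99.89% of them were below DPPA5, and a larger fall needs a start above 96.7%. In DPPA3 the conventional libraries were at 74.3, 73.7 and 91.5% and the reset libraries at 5.38, 0 and 7.87%, and the mean fell by 75.4 points (adjusted p = 1.97e-07, quasi-binomial model). DPPA3 had the widest spread of the set in conventional cells, with replicate 3 above the others on 59 calls, and the groups did not overlap.

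ZFP42 was at 34.6, 32.2 and 30.1% in conventional and 1.32, 5.13 and 1.44% in reset libraries, again without overlap. Its mean went from 32.3% ± 2.27 to 2.63% ± 2.17 (SD, n = 3 each) and thus fell by 29.7 points (adjusted p = 4.29e-07, quasi-binomial model). A larger fall was measured at 27.8% of all promoters tested. The call depended on the upstream bound: within 500 bases on either side of the start the difference was -5.91 points (adjusted p = 0.0878, quasi-binomial model).

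In conventional cells the order of promoter levels was DPPA5, DPPA2, DPPA3, ZFP42 and DPPA4. DPPA2 and DPPA3 were indistinguishable within their spread, with a mean difference of 1.55 ± 12.2 points (SD over 3 libraries), and the ranges of the other neighbours in this order did not overlap. In reset cells the means ran from 4.41% ± 4.02 in DPPA3 to 0.366% ± 0.635 in DPPA4 (SD, n = 3 each), and the ranges of all neighbours in the order overlapped. The plot of promoter levels by library shows the wide range of the former and the narrow range of the latter.

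**Figure D1:**
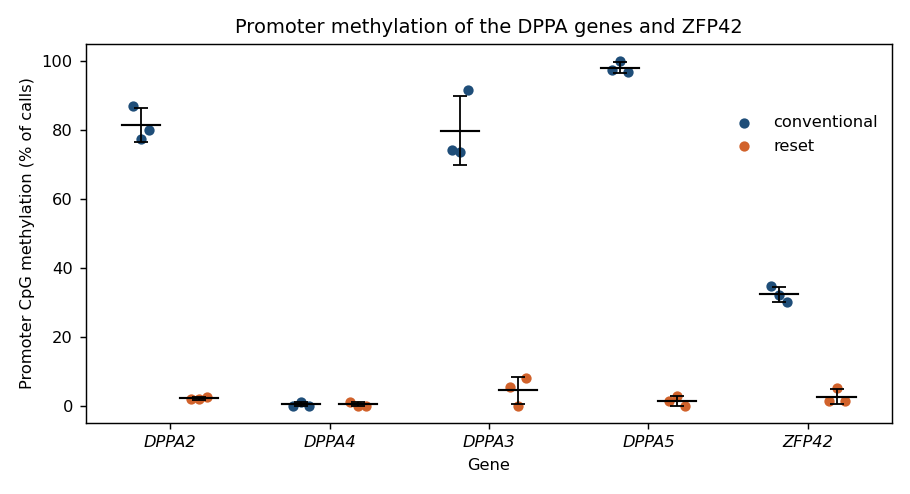
CpG methylation of the 5 promoters (percentage of methylated calls, vertical axis) by gene, with a point for each of 3 conventional (blue) and 3 reset (orange) libraries and bars for the mean ± SD. DPPA5 fell from 98.1 to 1.43% and DPPA2 from 81.4 to 2.12%, whereas DPPA4 was at 0.366% in both groups.

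How far these promoters emptied was set beside other methylated promoters. Of all promoters, 4438 were at 70% or more in conventional cells, and DPPA2, DPPA3 and DPPA5 are among them. In reset cells the 4438 promoters had a median of 33.3% with quartiles of 22.4 and 42.7%, and 91 of them (2.05%) were at 5% or less. DPPA2, DPPA3 and DPPA5 were all in that low group, with means of 2.12, 4.41 and 1.43%. For DPPA3 this rested on reset replicate 2 at 0%, since the other libraries were at 5.38 and 7.87%. At 10% or less were 286 promoters (6.44%). The promoters nearest to each gene in level over the 6 libraries, by Euclidean distance, were GJB7 and ZNF736 for DPPA2 and KRTAP4-1 and BTK for DPPA3. They were DHRS3 and P4HB for DPPA4, HNF4A and C17orf98 for DPPA5, and ZNF484 and NMRAL1 for ZFP42. Within 10 points of DPPA4 there were 4860 other promoters, within 10 points of ZFP42 there were 108, of DPPA5 22 and of DPPA2 10. DPPA3 had no promoter that near, and its closest, KRTAP4-1, was 10.9 points away. The distance includes the sampling noise of each library, and with few calls and the widest spread DPPA3 is the least comparable in this measure.

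Single CpGs were read from the calls of a group's libraries together, for CpGs with at least 5 calls in each group, and are described without a test. In DPPA5 all 56 such CpGs were at 80% or more in conventional cells, and 47 had no methylated call in reset cells. In DPPA2 the 42 CpGs had a median of 89.4% in conventional cells, with a minimum of 38.5%, and 37 had no methylated call in reset cells. In DPPA3 the 21 CpGs lay between 50 and 100% in conventional cells and between 0 and 17.6% in reset cells. Every CpG read in these 3 promoters was thus lower in reset cells, and none was retained at its conventional level. Of the 17 CpGs of DPPA4, 16 had no methylated call in conventional cells and 16 had none in reset cells. ZFP42 was mixed in conventional cells: of 57 CpGs, 12 were at 80% or more, 9 were between 20 and 80% and 36 were at 20% or less. The plot of single CpGs shows that the methylated ones lie upstream.

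**Figure D2:**
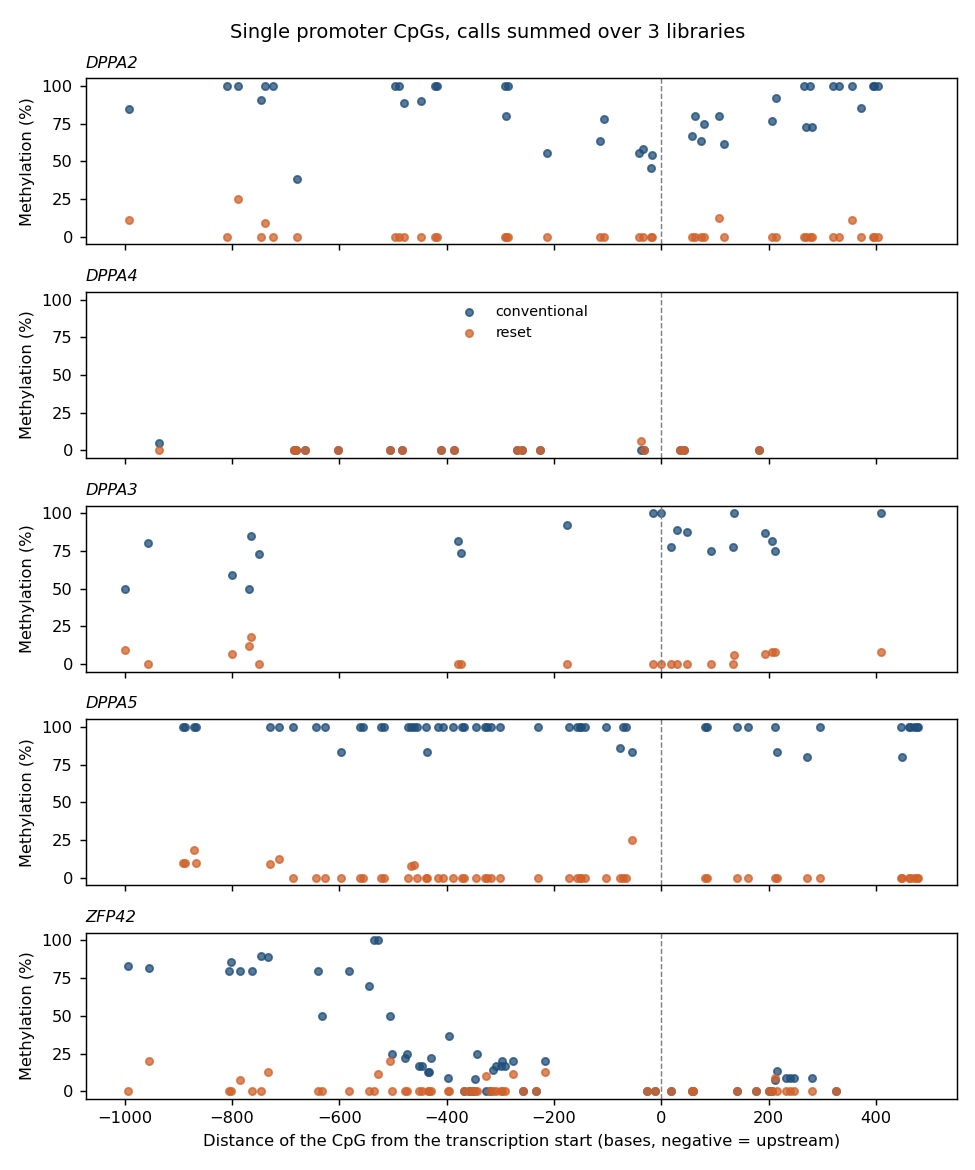
Methylation of single promoter CpGs (percentage of methylated calls summed over 3 libraries, vertical axis) by distance from the transcription start in bases (horizontal axis, dashed line at the start), for conventional (blue) and reset (orange) cells. In ZFP42 12 of 57 CpGs are at 80% or more in conventional cells and lie on the left, away from the start.

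Tiles of 200 bp across 3000 bases on each side of the starts showed where methylation was lost. Of 150 tiles at the 5 genes, 93 had at least 5 calls in every library and were tested. In reset cells 71 of them were lower (quasi-binomial model, adjusted p under 0.05) and the other 22 did not pass, where 51.2% of 275571 tiles of all genes were lower and 1.76% higher. The median difference was -73.8 points at the 5 genes and -35.3 points over all tiles tested, which were not matched by conventional level. In conventional cells the tested tiles had medians of 89.8% in DPPA2, 95.8% in DPPA3, 94.75% in DPPA5, 29.8% in ZFP42 and 0% in DPPA4. All tested tiles were lower in DPPA2 (19), DPPA3 (21) and DPPA5 (16), and the groups did not overlap in any of them. In all, 72 of the 93 tiles had every reset library below every conventional one, beside 57.6% of all tiles (2.96% the other way). In ZFP42 14 of 23 tiles were lower, and in DPPA4 1 of 14. Neighbouring tiles are not replicates of each other.

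DPPA5 showed the sharpest contrast between the groups. The tile that starts at the transcription start and the one from 400 to 200 bases upstream both had 100% in every conventional library and 0% in every reset library. The conventional libraries had 24, 20 and 6 calls in the former tile and 7, 5 and 43 in the latter. The reset libraries together had 78 and 63 calls, which allow up to 3.85 and 4.76% if calls are independent. From 800 bases upstream to 3000 bases downstream, past the end of this short gene, the level was 97.1, 97.8 and 93.8% in conventional and 1.31, 1.19 and 0.625% in reset libraries. Further upstream, from 3000 to 1200 bases before the start, reset cells kept 23.5% ± 7.97 beside 83.7% ± 10.9 in conventional cells (SD, n = 3 each). The bounds of this and the following stretches were set after the levels had been seen, and they are given without a test.

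DPPA3 was nearly unmethylated downstream of its start in reset cells. From 800 to 3000 bases downstream the conventional libraries were at 98.4, 94.4 and 91.9% and the reset libraries at 1.395, 1.06 and 1.12%. From 3000 to 1000 bases upstream, reset cells kept 14.9% ± 3.86 of calls methylated against 91.8% ± 3.57 in conventional cells (SD, n = 3 each). In DPPA2 the low stretch of reset cells ran from 1400 bases upstream to 1800 bases downstream, at 4.42% ± 1.78 beside 85.2% ± 3.54 in conventional cells (SD, n = 3 each). Within it the tiles at 600, 1000 and 1200 bases downstream were higher, with reset means of 18.2, 15.5 and 10.5%. The first 200 bases upstream of DPPA2 were the least methylated of its tested tiles in conventional cells, at 75, 50 and 42.1%, and had no methylated call in any reset library.

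DPPA4 and ZFP42 both had an unmethylated stretch at the start in conventional cells. In DPPA4 it ran from 1000 bases upstream to 2200 bases downstream, with 4 methylated calls of 833 in conventional and 2 of 778 in reset cells. Upstream of it, from 3000 to 1000 bases before the start, the level was 29.0, 34.1 and 32.3% in conventional and 4.92, 6.41 and 2.30% in reset libraries. The tile of DPPA4 that passed lies in this upstream stretch, from 2200 to 2000 bases before the start, and fell from 48.2 to 7.91% (adjusted p = 0.0134, quasi-binomial model). Without reset replicate 3 no tile of DPPA4 passed by that model, with 1 tile at an unadjusted p under 0.05.

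In ZFP42 the unmethylated stretch reached less far upstream. From 200 bases upstream to 1200 bases downstream the level was 3.05% ± 2.31 in conventional and 1.85% ± 1.65 in reset cells (SD, n = 3 each). From 1200 to 2200 bases downstream it was still low, at 6.10% ± 3.23 in conventional and 0.808% ± 0.709 in reset cells (SD, n = 3 each). From 3000 to 600 bases upstream, conventional libraries were at 67.5, 73.8 and 64.5% and reset libraries at 5.92, 4.10 and 5.97%. Among the tested tiles of the gene the largest difference lay here, from 1600 to 1400 bases upstream, where the level fell from 95.5 to 3.30% (adjusted p = 0.0076, quasi-binomial model). From 2200 to 3000 bases downstream, conventional libraries were at 30, 30.4 and 41.5% and reset libraries at 1.33, 0 and 0%. Methylation on both sides of the ZFP42 start was thus low in reset cells, and the start itself was low in both groups. The profiles by tile show both unmethylated stretches.

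**Figure D3:**
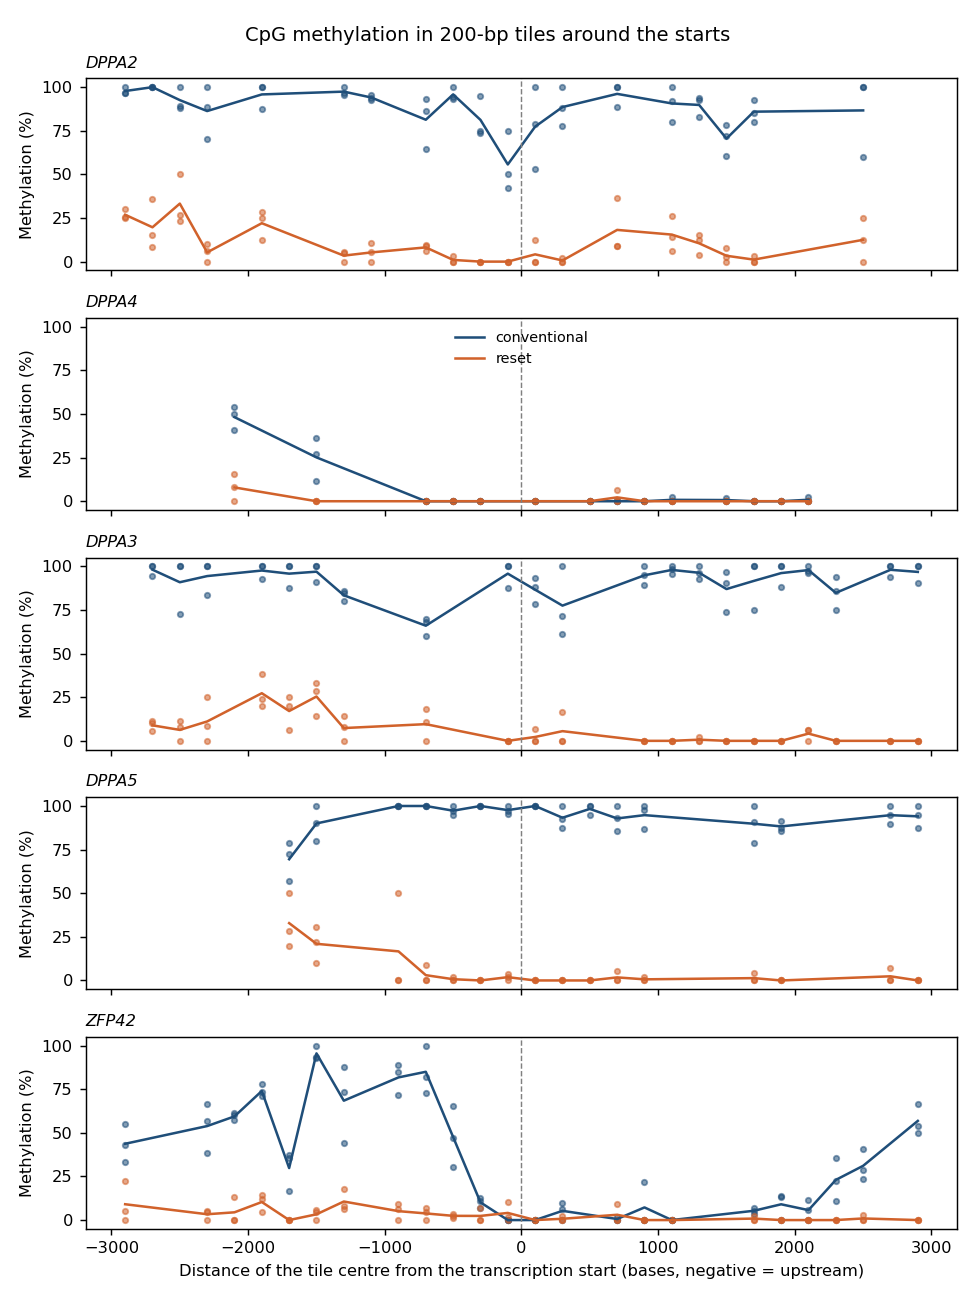
CpG methylation (percentage of methylated calls, vertical axis) in 200-bp tiles with at least 5 calls in every library, by distance of the tile centre from the transcription start in bases (horizontal axis). Points are libraries and lines are means of 3 conventional (blue) or 3 reset (orange) libraries. DPPA2, DPPA3 and DPPA5 have no tile near 0 in conventional cells, with the lowest at 55.7% in DPPA2, and DPPA4 and ZFP42 are near 0 around the start in both groups.

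Gene bodies, taken after the first 500 bases to the end of the canonical transcript, were lower in reset cells in all 5 genes, where 97.8% of 19153 bodies were lower and 1.15% higher. The groups did not overlap in any of the 5, as in 97.7% of all bodies (1.16% the other way). The sizes of the falls differed within the set. In DPPA5 the body was at 100, 96.6 and 86.8% in conventional and 0, 1.25 and 1.15% in reset libraries, and the mean of its 21 CpGs fell by 93.7 points (adjusted p = 6.60e-13, quasi-binomial model). In DPPA3 it was at 92.2, 90.4 and 88.6% in conventional and 5.14, 7.48 and 4.49% in reset libraries, and the mean fell by 84.7 points (adjusted p = 1.40e-20, quasi-binomial model). These are large among gene bodies, of which 0.0157% had a larger fall than DPPA5 and 0.151% a larger fall than DPPA3, with a median difference of -51.2 points over all bodies. However, these genes are only 1214 (DPPA5) and 6127 (DPPA3) bases long. The low stretches of reset cells at their starts reach 3000 and 4000 bases downstream, by windows of 1 kb at 10% or less. The body of DPPA5 thus lies wholly, and that of DPPA3 partly, within the low stretch of the start.

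The body of DPPA2 was at 93.4, 92.5 and 92.6% in conventional and 37.5, 40.2 and 37.02% in reset libraries, and the mean fell by 54.6 points (adjusted p = 3.29e-21, quasi-binomial model). Its reset mean of 38.2% lay above that of 72.2% of all bodies, whose median was 34.0%, while its promoter was at 2.12%. DPPA4 went from 54.8, 57.4 and 47.7% to 10.1, 12.8 and 12.1% and fell by 41.7 points, and ZFP42 from 55.2, 57.9 and 57.9% to 7.42, 7.03 and 5.60% and fell by 50.3 points (adjusted p = 1.88e-14 and 3.28e-18, quasi-binomial model). These bodies were the least methylated of the set in conventional cells, where their ranges overlapped. In reset cells DPPA2 stood 26.6 ± 1.42 points above DPPA4, the next gene (SD over 3 libraries).

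Exons and introns of the bodies were also read apart, without a test. In DPPA3 the 13 exonic CpGs were at 11.6, 28.8 and 14.9% in reset libraries, and the 149 intronic CpGs at 4.42, 5.24 and 3.33%. In ZFP42 the exons held 12.3, 13.4 and 9.57% and the introns 5.32, 4.33 and 4.76%, and in DPPA4 the exons held 21.1, 25.8 and 22.8% and the introns 7.20, 9.65 and 9.84%. Exonic levels were thus above intronic levels in every reset library of these 3 genes, and also in DPPA2, at means of 46.7 and 37.6%. In DPPA5, with 3 exonic CpGs, both were at 0 to 5.88%. Exons were already above introns in conventional cells in DPPA4 (means of 91.6 and 43.2%), ZFP42 (94.2 and 44.2%), DPPA3 (98.9 and 89.7%) and DPPA2 (96.1 and 92.6%), and not in DPPA5 (90.5 and 95.8%). The first exons of DPPA3, DPPA4 and ZFP42 hold 220, 83 and 70 bases and end before the bodies begin. The bodies of these genes include the low stretches after their starts. Exons and introns were not compared at like distances from the start, and the part of distance in this contrast was not tested. DPPA3 has 11 annotated pseudogenes, DPPA2 4, DPPA5 3 and DPPA4 2, and ZFP42 has none by name. Reads that such copies share with the exons may be counted at either place, and their part in these levels was not tested.

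**Figure D4:**
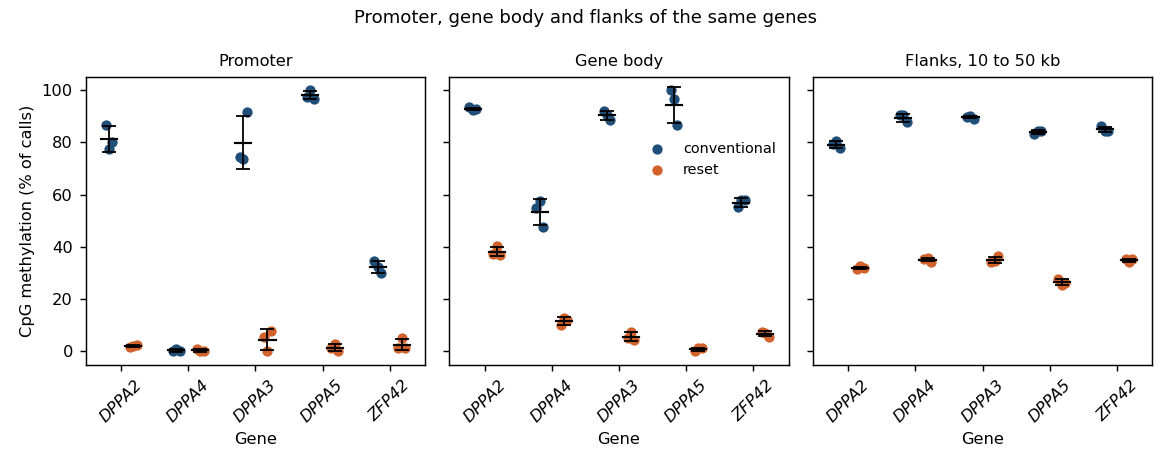
CpG methylation (percentage of methylated calls, vertical axis) of promoters, gene bodies and flanks from 10 to 50 kb on both sides, by gene, with a point for each of 3 conventional (blue) and 3 reset (orange) libraries and bars for the mean ± SD. In reset cells the flanks have means of 26.5 to 35.1% and all 5 promoters have means below 5%, beside a median of 4.98% over all promoters tested.

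The surroundings of the 5 genes were compared with their promoters, to see whether the promoters did what the region did. All CpGs between 10 and 50 kb from the start on both sides were taken as flanks. Flanks had means of 79.2% (DPPA2) to 89.7% (DPPA3) in conventional cells and of 26.5% (DPPA5) to 35.1% (DPPA4) in reset cells. In reset cells every promoter was below its flank, with a promoter minus flank of -25.02 points in DPPA5, -29.9 in DPPA2, -30.7 in DPPA3, -32.3 in ZFP42 and -34.8 in DPPA4. It was not computed for other genes. Over all genes tested, the reset medians were 4.98% at promoters and 34.0% at bodies, so a promoter below its surroundings is not particular to this set. In conventional cells promoter minus flank was 14.2 ± 1.71 points in DPPA5, 2.20 ± 5.36 in DPPA2, -9.84 ± 10.6 in DPPA3, -52.7 ± 1.35 in ZFP42 and -89.1 ± 1.30 in DPPA4 (SD, n = 3 each). From conventional to reset cells it moved by -39.2 points in DPPA5, -32.1 in DPPA2 and -20.8 in DPPA3, and by 20.4 in ZFP42 and 54.4 in DPPA4. Each of these moves had p = 0.1 by a two-sided exact permutation test, the smallest that 3 libraries against 3 allow. In points, the promoter difference was thus larger than the flank difference in DPPA5, DPPA2 and DPPA3 and smaller in ZFP42 and DPPA4. The promoter of DPPA4 had no room to fall, and its move is that of the flank. As a share of the conventional level, the promoter of ZFP42 lost 91.9% and its flank 58.9%, so that the order turns for this gene. The flanks of DPPA2 and DPPA4 each contain the other gene's promoter.

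Windows of 1 kb over 50 kb on each side, with the calls of each group summed, showed how far the low stretch of reset cells reached. Windows at 10% or less ran without a break from 1 kb upstream to 4 kb downstream in DPPA2 and DPPA3, and to 3 kb downstream in DPPA5. In DPPA4 and ZFP42 they ran from 4 kb upstream to 5 kb downstream. In DPPA5 the run ended downstream at a window of 11.5%. The windows from 4 to 7 kb downstream were again low, at 1.61, 2.62 and 5.80%. Those from 5 to 3 kb upstream were at 9.49 and 5.39%. In all, 24 windows of DPPA5 were at 10% or less, beside 17 in DPPA2 and in DPPA4, 16 in ZFP42 and 14 in DPPA3. Of these, 19 in DPPA5, 6 in DPPA2 and in DPPA4, 8 in ZFP42 and 11 in DPPA3 were at 70% or more in conventional cells. Already at 10% or less there were 1, 5 and 5, 3 and 0, in the same order. Windows around other genes were not counted. Windows at 10% or less in reset cells also lay far from the starts: of 79 or 80 windows more than 10 kb away with at least 10 calls in each group, 7 (ZFP42) to 13 (DPPA5) were at 10% or less. In DPPA2 9 of its 12, and in DPPA4 5 of its 8, lie in the run at the start of the other gene of the pair. The median of these far windows was 36.3% (DPPA5) to 40.7% (DPPA4). Coverage over 500 kb on each side, relative to the library's mean, had a ratio of reset to conventional cells of 1.01 to 1.14 at the 5 genes, highest at DPPA5, and its part in the levels was not tested.

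**Figure D5:**
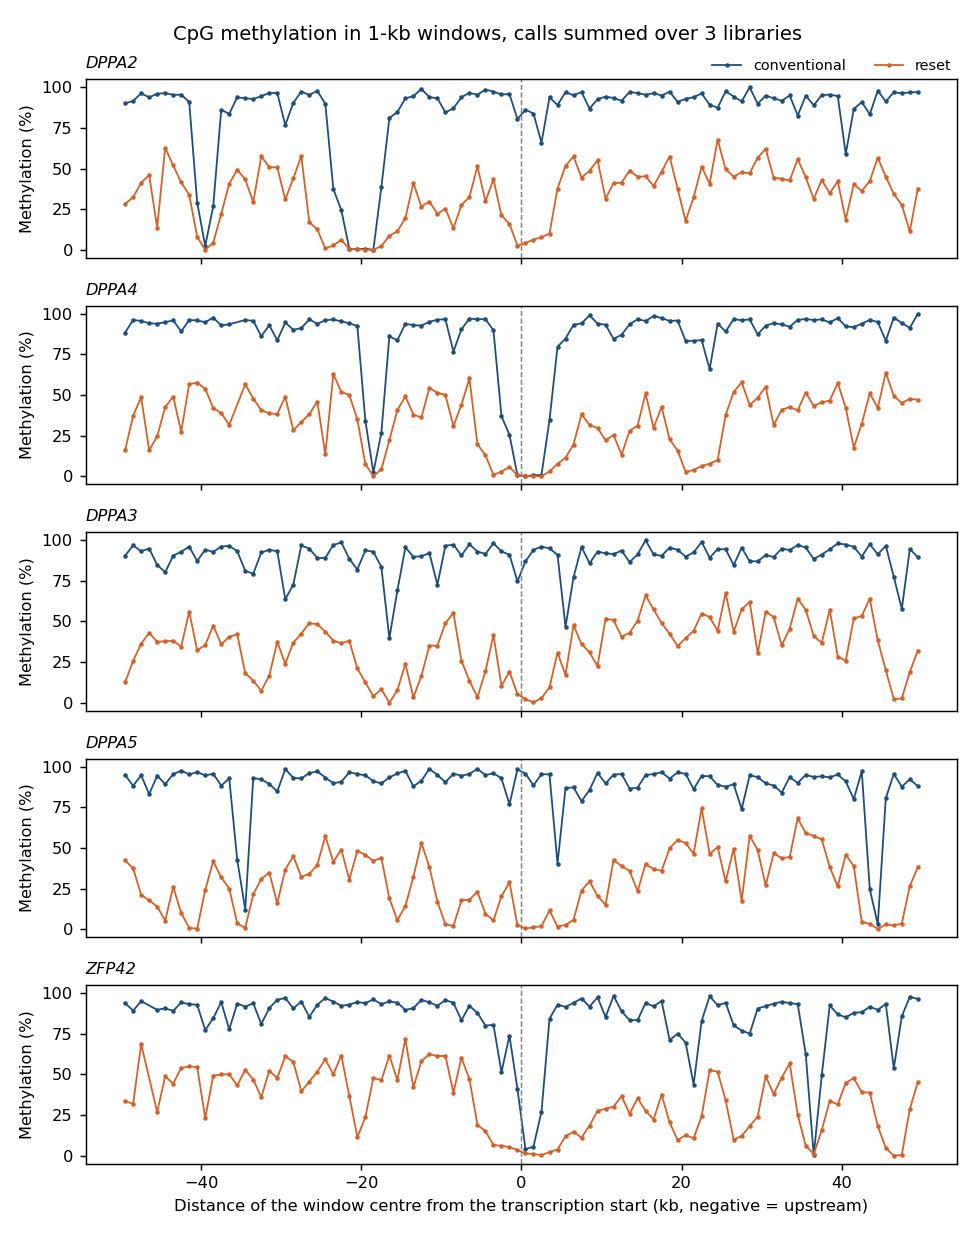
CpG methylation (percentage of methylated calls summed over 3 libraries, vertical axis) in 1-kb windows by distance from the transcription start in kb (horizontal axis, dashed line at the start), for conventional (blue) and reset (orange) cells. The reset line drops to 10% or less around every start, from 4 kb upstream to 5 kb downstream in DPPA4 and ZFP42, and also at some windows far from the starts.

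Relatives and neighbours of the 5 genes were read from lists, with counts that compare with 67.4% of all promoters lower. All 4 KH-domain relatives of DPPA5 in its gene cluster were lower in reset cells, with a median difference of -84.4 points beside -9.59 over all promoters. Their median in conventional cells was 95.1%, and all promoters at 70% or more there had a median difference of -54.3 points. KHDC3L fell from 95.2% ± 1.88 to 3.41% ± 0.303 and OOEP from 94.9% ± 2.77 to 8.53% ± 1.81, and both encode proteins of the maternal complex of the oocyte (SD, n = 3 each). KHDC1L fell by 82.4 points and KHDC1, which was at 22.8% in conventional cells, by 16.5 points. Of the relatives of ZFP42, the retrogene YY2 fell from 96.4% ± 3.15 to 47.3% ± 5.30, and YY1 was at 0.584% ± 0.507 and 0.663% ± 0.587 (SD, n = 3 each).

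Within 250 kb of the 5 starts lie 21 other coding promoters, of which 19 were lower and 2 did not pass, with a median difference of -43.4 points. Their median in conventional cells was 89.2%, and all promoters at 70% or more there had a median difference of -54.3 points. DDX43, a helicase gene 40552 bases from DPPA5, fell from 96.5% ± 2.03 to 2.39% ± 1.98 (SD, n = 3 each), and KHDC3L, 8382 bases from DPPA5, is the next largest fall. Those that did not pass were EEF1A1, an elongation factor gene near DPPA5 (0.965 and 0.4004%), and NANOG, 77969 bases from DPPA3 (6.53 and 3.83%). KHDC1 shares its promoter with another annotated gene, and these count as separate genes. Beside DPPA2 and DPPA4, MORC1 was at 54.2% ± 7.56 in reset cells and C3orf85 at 43.98% ± 4.33 (SD, n = 3 each), and beside ZFP42, TRIML1 was at 59.6% ± 9.78 (SD, n = 3), so low levels in reset cells did not extend to every neighbour. TRIML2, which is nearer to ZFP42 than TRIML1, fell from 35.0% ± 5.65 to 1.66% ± 2.06 (SD, n = 3 each). These 4 were named after their values had been seen.

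Of 8 genes of embryonic genome activation, 8 were lower, beside 67.4% of all promoters. Their median difference was -56.3 points and their median reset level 32.1%, from a median of 88.2% in conventional cells. The 4438 promoters at 70% or more in conventional cells had a median difference of -54.3 points and a median reset level of 33.3%. The list was thus close to other highly methylated promoters. ARGFX (93.9 to 8.24%) and KLF17 (96.2 to 28.5%) had the largest falls, and DUXA (68.2 to 30.8%) and TPRX1 (83.8 to 54.5%) the smallest differences. Of 10 genes for the writing, maintenance, protection and removal of DNA methylation, 6 were lower, a share near that of all promoters, with a median difference of -12.0 points. The largest falls were those of ZFP57 (95.4 to 11.6%), which guards imprints, and DNMT3L (83.6 to 2.90%), a cofactor of the de novo methyltransferases. TET2 (0.679 and 0.878%) and TET3 (0.732 and 1.399%), which oxidise methylcytosine, had the smallest differences and did not pass. Among 12 pluripotency factors 5 were lower and 7 did not pass, with a median difference of -2.88 points. GDF3, 15658 bases from DPPA3, fell from 71.9 to 8.95% and TFCP2L1 from 22.7 to 3.74%, and KLF4 (0.926 and 0.954%) and PRDM14 (0.216 and 0.247%) differed least.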

How the data were processed

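Calls at CpGs on chromosomes 1 to 22 and X were examined in 3 conventional and 3 reset libraries of H9. Per the labels, DNA was sonicated, ligated to methylated adapters, treated with bisulfite and amplified over 11 cycles. The authors used Trim Galore for trimming and Bismark for alignment to GRCh37. For Bismark the submitters' processing notes give version 0.9.0, with Bowtie2, and the methods text gives another version. A step for duplicate reads is not given in the sources used here. The deposited files hold the counts of calls at each cytosine, methylated and unmethylated, and the percent methylated, with no normalization. The deposited percent was checked and follows from these counts.

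Positions lay on a GRCh37 CpG in 99.78 to 99.83% of rows when counted from 0, and calls elsewhere were not used. Calls on both strands of a CpG were summed. Starts, bodies and exons are those of canonical transcripts in GENCODE, release 44 on GRCh37. A promoter or body needed 10 calls, and a tile 5 calls, in each of the 6 libraries to be tested. The test was a quasi-binomial logistic model of calls on group with a likelihood-ratio F test, 4 residual degrees of freedom and a dispersion squeezed with limma 3.58.1 in R 4.3.3 and kept at 1 or more. Adjustment was by Benjamini and Hochberg over all features of a kind, with a threshold of 0.05. Flank differences were tested with a two-sided exact permutation test. edgeR 4.0.16, limma on log ratios of calls, Fisher's exact test, other bounds and minimums, a replicate block and leaving out each library were alternatives. In calls simulated with the measured genome-wide loss, falls of 20 and 40 points from high levels were recovered in 77.5 and 99% of 200 changed promoters, 95 and 99% of bodies and 28.5 and 80.5% of tiles. Unchanged features of high level were called in 1.5% of promoters, 3.5% of bodies and 0.5% of tiles. A simulation without that loss changed features of intermediate level in both directions. It recovered changes of these sizes in 12 and 81% of promoters, 18 and 83% of bodies and 0 and 0% of tiles. The simulations thus differ in more than the loss.

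Wilson intervals at 95% confidence for a single library were 2.06 to 17.1 points wide at the promoters, and limits at a count of 0 are 3 calls of the total. Both take calls as independent, though calls at neighbouring CpGs can come from the same read. Replicate libraries differed by more than the binomial noise of independent calls (chi-square per degree of freedom 1.67 to 2.45). The part of calls that share a read in this excess was not tested. The genes named are the 5 members, for each the 2 promoters nearest in level, and from each of 6 lists the 2 largest falls and the 2 smallest differences, and outside this rule MORC1, C3orf85, TRIML1 and TRIML2. Members and lists were chosen with earlier results of these data known.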

Additional observations from a re-analysis of the deposited data

How the results depend on the processing

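Of 299 values recomputed under alternatives, 270 were classed as keeping their direction and side of the threshold. Of the others, 27 were classed as moved in value, 1 as weaker, 1 as stronger and 0 as reversed. The promoter difference of DPPA4, 0 points as reported, ranged from -6.66 to 0.47, so it had no direction to keep. For promoters, the difference of DPPA2 ranged from -81.3 to -76.6 points, that of DPPA3 from -82.8 to -69.6 and that of DPPA5 from -97.4 to -90.7, and all passed the threshold under each alternative. ZFP42 passed under all but the bounds of 500 bases on both sides (-5.91 points), and DPPA4 passed only with the bound at 2000 bases upstream (-6.66 points). All 5 bodies passed under each alternative run. With flanks from 5 to 25 kb, the change in promoter minus flank was 59.22 points in DPPA4, -30.53 in DPPA5 and 25.39 in ZFP42.

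With at least 10 calls, tiles lower in reset cells numbered 12 in DPPA2, 11 in DPPA3, 7 in DPPA5 and 6 in ZFP42, since fewer were tested, and 50744 lower and 2789 higher over all genes. With at least 3 calls 2 tiles of DPPA4 were lower. Leaving out each library gave 0 to 1 lower tiles in DPPA4, 0 without reset replicate 3, and 2100 to 3142 higher tiles over all genes, beside 4841 with all libraries. By limma 8660 tiles were higher. Promoters lower over all genes numbered 7489 with the bounds of 500 bases, beside 13004, and promoters higher 474 with the bound at 2000 bases upstream, beside 768.

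The replicate numbers of the titles showed no clear pairing of the libraries. Deviations from the group means correlated at 0.00775, 0.0124 and 0.00981 for the same number, and at -0.0166 to 0.0071 for different numbers. The same-number values were thus the highest, but all are small. Deviations that carry the noise of the calls cannot exclude a pairing. With the replicate block by the quasi-binomial model, no tile of any gene passed, neither lower (0) nor higher (0). At an unadjusted p under 0.05, 18 tiles of DPPA2, 21 of DPPA3, 1 of DPPA4, 15 of DPPA5 and 12 of ZFP42 were still lower, and over all genes 124484 lower and 3914 higher. The block changed no call at the promoters and bodies of the 5 genes, with adjusted p of 0.0015 for DPPA2 and DPPA3, 4.69e-05 for DPPA5 and 0.00177 for ZFP42 at the promoters. Over all genes it left 12353 promoters lower and 638 higher, beside 13004 and 768. Depth limits single CpGs and the promoter of DPPA4. At that promoter a library without a methylated call allows a level of up to 2.94 to 4% if calls are independent. Whether changes of a few points can be detected there was not tested.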
